A study of Mus musculus with 2 samples.

Results

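The eWAT-specific PPARγ regions are stretches of the mouse genome that the authors listed as specific to epididymal white adipose tissue (eWAT) when compared with brown adipose tissue (BAT). Members were taken by rule from the 4711 rows of the deposited eWAT-specific list. Rows were kept if their score was at most 20.12, the highest score of the BAT-specific list, and if they lay outside 2 loci where reads pile up. This left 4688 regions, 99.5% of that list and 56.7% of the 8268 regions of both lists. The members were thus selected on their deposited score and on the authors' call of specificity, so the scores and the closeness to BAT regions are described here and were not tested.

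PPARγ is a nuclear receptor that binds DNA as a heterodimer with a retinoid X receptor and is required for fat cell differentiation. In mature fat cells it sits mostly at enhancers away from gene starts and controls genes of lipid uptake and storage. White fat around the testis stores triglyceride, whereas brown fat oxidises fatty acids to make heat, and the receptor occupies partly different sites in each.

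The BAT and the eWAT group both came from male mice of strain 129SV, aged 8 to 10 weeks, kept on normal chow in a regular light and dark cycle, and the labels name no altered gene or drug. Fat was taken at zeitgeber time 10 h, fixed with 1% formaldehyde and immunoprecipitated with an antibody to PPARγ. For each depot the DNA of 4 mice was pooled into 1 library, so nothing below has a replicate check and no p-value is given. The labels name no purification of fat cells, and fat tissue also holds blood vessel, immune and stromal cells, and fewer bound cells cannot be told apart from less binding per cell. The 2 lists differ in how finely they were measured. The deposited score moves in even steps, as a tag count multiplied by a single factor would, and 1 step is 0.348 in the eWAT list and 0.0687 in the BAT list. If a step is 1 sequenced tag, the median member rests on 8 tags and the median BAT-specific region on 52, and the Poisson intervals given below cover that counting error only.

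Positions are 1-based and are taken as build mm9, 1 of the 2 builds (mm8 and mm9) that the submitters' processing notes name. The gene table used for mouse names is of the later build GRCm38 and was not applied to them. Against it, 36 members on 6 chromosomes would lie beyond the last gene of their chromosome, and chromosome lengths were not compared. The last member of chromosome 1 (chr1:196704692-196704891, score 5.23) is 1 of them. No gene positions or genome sequence of the deposited build were used here. Each locus is therefore named by its coordinates, no gene is assigned to a region, no sequence is printed, and the tissue was not checked against its marker genes.

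The members were mostly low-scoring regions with a thin tail of high ones. The score ran from 1.39 to 18.81 with a median of 2.79 (4, 54 and 8 score steps). At or below 2.09 lay 1235 members (26.3%), and the upper quartile was 3.83. The list did not fade out smoothly at its lower end: 24 members had 4 score steps and 193 had 5, whereas 1018 (21.7%) had 6. From there the number fell at each step to 756 at 7 steps, 551 at 8 and 431 at 9. In all, 2973 members (63.4%) had 9 score steps or fewer. At the other end, 240 members (5.12%) scored 6.97 or more, which is 20 score steps. Only 42 members (0.896%) scored 10.45 or more (30 score steps), and these are called strong below, a limit set after the scores were seen.

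**Figure D1:**
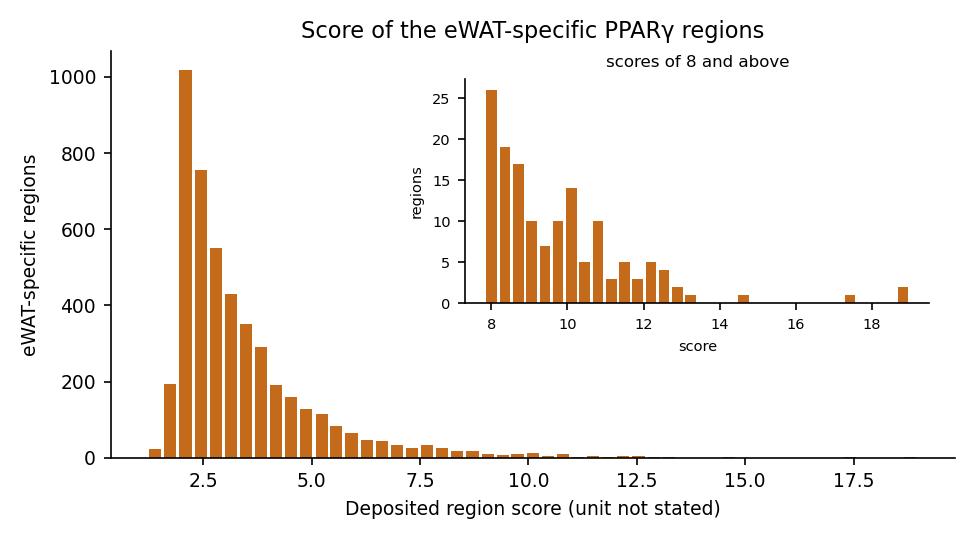
Number of eWAT-specific regions at each value of the deposited score (unit not stated), 4688 regions in all, with the scores of 8 and above enlarged in the inset. The bars peak at 2.09 with 1018 regions, and the tail ends with 2 regions at 18.81.

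The rule's limit fell in a sparse part of the score range. Just inside it were the 2 regions at 18.81 and 1 at 17.42. Just outside were a region of the chromosome 9 pile-up at 20.21 and a region on chromosome 1 at 20.55 (chr1:157643013-157643212). Of the 23 rows left out, 13 lay at the chromosome 9 pile-up and 5 at that on chromosome 2, and 5 more were dropped for their score alone. Those 5 lay on chromosomes 1, 6, 9, 12 and X, with scores of 20.55, 24.04, 96.15, 29.26 and 23.34.

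The 11 strongest members lay at 11 separate loci, since 4 regions tied at the tenth rank. A region on chromosome 13 (chr13:100507346-100507545) scored 18.81, or 54 score steps (95% Poisson interval 40.6 to 70.5). It stood alone: the nearest other member was 609.6 kb away, the nearest BAT-specific region lay 1011 kb away, and its 1 Mb window held no other region of either list. A region on chromosome 4 (chr4:155164273-155164472) had the same score and lay in different company. Another member was 13.2 kb away and a BAT-specific region 120.9 kb away, and its window held 4 members and 3 BAT-specific regions.

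The region on chromosome 10 (chr10:89736245-89736444) followed with 17.42, or 50 score steps (interval 37.1 to 65.9). Its nearest BAT-specific region was 2799 kb away. The intervals of these first 3 members overlap, so their order is not resolved by counting error. On chromosome 4 a further member (chr4:100347539-100347738) scored 14.63, or 42 score steps (interval 30.3 to 56.8), and belonged to a cluster of 4 members described below. A region on chromosome 11 (chr11:86409698-86409897) scored 13.24, or 38 score steps.

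Below these, 2 members shared a score of 12.89, or 37 score steps. The one on chromosome 16 (chr16:76467764-76467963) had another member 3.67 kb away, whereas the one on chromosome 2 (chr2:166844991-166845190) had none within 305.6 kb. The 4 tied members at 12.54 (36 score steps, interval 25.2 to 49.8) also differed in their surroundings. The member at chr2:92450252-92450451 had another member only 0.443 kb away and 8 members in its window. The member at chr2:65066152-65066351 was the only region of its window, 1029 kb from the next member and 152.2 kb from the nearest BAT-specific region. The member at chr15:66850375-66850574 had its nearest fellow at 50.3 kb. The member at chr6:87823177-87823376 lay 2.47 kb from a BAT-specific region, so a site listed as specific to one depot can sit beside a site listed as specific to the other.

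Strong members were spread over 16 chromosomes. No strong member lay on chromosomes 8, 14, 18, X or Y. These held 4.63%, 4.14%, 3.39%, 1.62% and 0.0213% of all members. With only 42 strong members in all, absence from any single one of these chromosomes carries little weight. The highest scores there were 9.75 on chromosome 8 (chr8:11038967-11039166), 9.06 on chromosome 14 (chr14:63427558-63427757), 8.01 on chromosome 18, 6.97 on chromosome X (chrX:137125669-137125868) and 4.18 at the single member on chromosome Y (chrY:1663788-1663987). On the other chromosomes the top member scored at least 10.45. Examples not yet named are chr5:99817855-99818054 and chr7:29096177-29096376, both at 12.19, and chr12:87593734-87593933, chr17:14916261-14916460 and chr3:130582520-130582719, all at 11.5. The chromosome 5 example lay 3100 kb from the nearest BAT-specific region, the largest such distance among the strong members.

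A close neighbour is defined throughout as another member within 12500 bp. Of the 42 strong members, 9 (21.4%, exact 95% interval 10.3 to 36.8%) had one. Over all members it was 917 (19.6%, interval 18.4 to 20.7%), within the interval of the strong ones. Having a close neighbour is mutual, and these 917 members form 421 clusters, so the interval over all members is too narrow. The same distance within the BAT list gave 23.9%. Of the strong members, 14 (33.3%, interval 19.6 to 49.5%) lay in a window with no BAT-specific region, against 30.7% of all members (interval 29.4 to 32.1%).

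Members lay on all 19 autosomes, on chromosome X and, with 1 region, on chromosome Y. Over the span from the first to the last region of either list, chromosomes 1 to 19 and X held 1.84 members per Mb. Chromosome 11 was the densest, with 344 members and 2.91 per Mb (95% Poisson interval 2.61 to 3.23). Chromosome 19 had 2.65 per Mb (interval 2.25 to 3.11, 152 members) and chromosome 17 had 2.35 (interval 2.04 to 2.69, 213 members), so these 3 are not separated beyond counting error from their neighbours in the order. The sparsest autosome was chromosome 3 with 1.54 per Mb (interval 1.35 to 1.75, 239 members). Chromosome X held 76 members, or 0.474 per Mb (interval 0.373 to 0.593), below every autosome. Regions in a cluster are not independent, which makes these intervals too narrow.

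BAT-specific regions had the same extremes. They were densest on chromosome 11 (1.95 per Mb, interval 1.71 to 2.22) and sparsest on chromosome X (0.231 per Mb, interval 0.162 to 0.318), at 1.40 per Mb over chromosomes 1 to 19 and X. The high density on chromosome 11 and the low density on X were therefore common to both lists. Members outnumbered BAT-specific regions on every chromosome, as they did in total (1.32 to 1). The ratio was lowest on chromosome 8 (217 members and 209 BAT-specific regions, 1.04 to 1), chromosome 2 (345 and 312, 1.11 to 1) and chromosome 18 (159 and 143, 1.11 to 1). It was highest on chromosome X (76 and 37, 2.05 to 1), chromosome 19 (152 and 91, 1.67 to 1) and chromosome 5 (323 and 210, 1.54 to 1). Each chromosome's share of the members was set beside its share of the BAT list. The exact 95% intervals overlapped on each of the 20 chromosomes that hold both kinds of region.

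**Figure D2:**
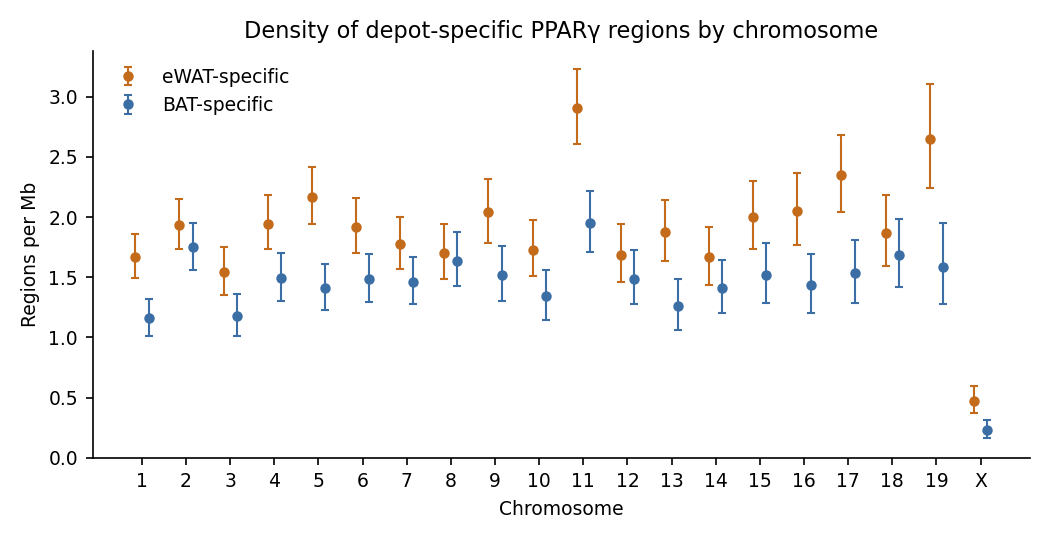
Depot-specific PPARγ regions per Mb on chromosomes 1 to 19 and X, for the eWAT-specific members and the BAT-specific list. Points are counts divided by the span from the first to the last region of either list, and bars are exact 95% Poisson intervals; both lists are highest on chromosome 11 (2.91 and 1.95 per Mb) and lowest on X (0.474 and 0.231).

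The median score hardly differed between chromosomes. It was 2.79 on most of them, 3.14 on chromosomes 2, 9 and 12, and 2.44 on chromosomes 10 and X, which is 1 score step to either side. The share of members with a close neighbour was 19.6% over the whole list. Among the autosomes this share was lowest on chromosome 13 (31 members, 14.3%) and highest on chromosome 14 (54 members, 27.8%). On chromosome 6 it was 26.5% (74 members). No interval was computed for the shares by chromosome. Members with a close neighbour come in clusters and are not independent, so the range is not read as a difference between chromosomes.

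The median distance between a member and its nearest fellow was 72.1 kb (95% interval of the median 67.3 to 77.3 kb), with quartiles of 19.5 and 215.2 kb. Only 80 members (1.71%) had one within 500 bp, and 84 more within 1 kb. A further 120 had one at 1 to 2 kb, 194 at 2 to 5 kb and 439 at 5 kb to 12500 bp. The largest class was the 1463 members (31.2%) with the nearest fellow at 50 to 200 kb. At the far end, 180 members (3.84%) had none within 1 Mb.

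The closest members nearly touched. On chromosome 11 the regions chr11:3384035-3384234 and chr11:3384257-3384456, with scores of 1.74 and 2.79, had midpoints 222 bp apart. A second such pair on the same chromosome (chr11:35010160-35010359 and chr11:35010384-35010583) was 224 bp apart, both at 2.44. The next closest lay on chromosomes 16, 6 and 9, at 253, 254 and 265 bp. None of the members in these 5 pairs scored above 3.48.

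Members lay closer to each other than to BAT-specific regions. The median distance from a member to the nearest BAT-specific region was 232.9 kb (interval 220.9 to 245.3 kb). Of the members, 3291 (70.2%, interval 68.9 to 71.5%) were nearer to another member than to any BAT-specific region. Of the BAT-specific regions, 64.1% were nearer to another of their own list. That list is shorter, so the shares cannot be set against each other. How specificity was called is not stated, and its part in the separation was not tested. A BAT-specific region lay within 12500 bp of 188 members (4.01%), while 608 (13.0%) had none within 1 Mb. In the other direction, 196 BAT-specific regions (5.51%) had a member within 12500 bp. Shares for regions scattered at random were not computed, so these values are not called low or high.

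**Figure D3:**
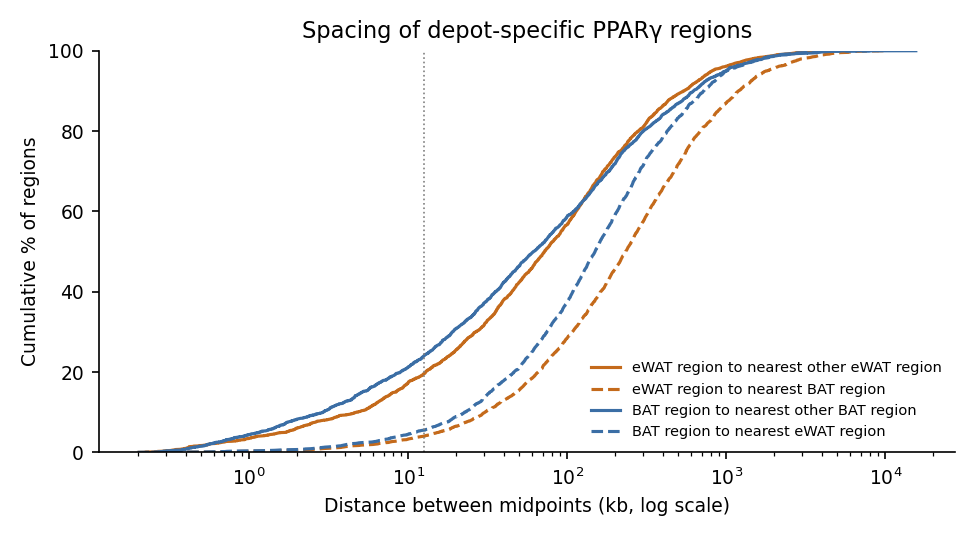
Cumulative percent of regions by distance (kb, log scale) to the nearest region of the same list (solid) and of the other list (dashed), for eWAT-specific members and BAT-specific regions. The dotted line marks 12500 bp, where 19.6% of members have another member and 4.01% have a BAT-specific region.

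Members with close neighbours scored slightly higher. The median was 3.14 (9 score steps) for the 917 members with a close neighbour and 2.79 (8 score steps) for the 3771 without. The interval of the first median, 2.79 to 3.14, includes the second, and the medians differ by 1 score step. The upper quartiles were 4.18 and 3.83. By distance to the nearest BAT-specific region, the median score was 2.79 in each of the 5 classes from under 12500 bp to over 1 Mb. The upper quartile was likewise 4.18 for the 188 members with a BAT-specific region within 12500 bp and 3.83 in the farther classes.

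The close neighbours formed 421 clusters when members within 12500 bp were joined. Most were pairs: 358 of 2, 51 of 3 and 12 of 4 members, and no cluster was larger. The clusters of 4 hold 48 members, 1.02% of the list. Their number depends on the setting: 4 clusters of 4 or more were left when members within 1 kb were merged, and 2 among members at or above the median score. In pairs the midpoints were a median of 4.74 kb apart, and 56 pairs (15.6%) lay within 1 kb. The stronger region of a pair had a median score of 3.83 and the weaker 2.44, a gap that follows at least in part from ranking the 2 by score.

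Scores within a pair ranged from equal to far apart. In 41 pairs (11.5%) the scores were equal and in 109 they differed by 1 or 2 score steps, whereas in 46 (12.8%) they differed by 10 or more. Members drawn at random from the list also differ in score, and shares for such draws were not computed. The values therefore describe the pairs and are not read as a trait of pairing or of binding. The most unequal pairs, named after their values were seen, differed by 24 score steps. On chromosome 6 (chr6:48522685-48534089) regions scoring 11.84 and 3.48 were 11.2 kb apart. On chromosome 1 (chr1:153075817-153082438) and chromosome 2 (chr2:72685391-72690946) the scores were 10.45 and 2.09, at distances of 6.42 and 5.36 kb.

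The 12 clusters of 4 had a median span of 15.7 kb and came in uneven and even forms. In the most uneven one, on chromosome 4 (chr4:100347539-100365771, 18.2 kb), the scores in genomic order were 14.63, 2.44, 3.48 and 2.09. One strong region thus stood at the edge, 8.77 kb from the nearest of 3 weak ones. The cluster on chromosome 19 (chr19:42268036-42287522, 19.5 kb) had the same form, with scores of 10.8, 2.79, 3.14 and 2.09. Both lay in windows without a BAT-specific region, the nearest being 731.9 kb and 1495 kb away.

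A second cluster on chromosome 4 (chr4:47142601-47151491, 8.89 kb) was built of 2 tight pairs. Its scores were 4.88, 7.66, 4.18 and 4.18, the highest minimum of the 12 clusters. The distances within the pairs were 0.415 and 0.955 kb and the distance between them was 7.32 kb. On chromosome 9 (chr9:46004992-46024068, 19.1 kb) the scores were 2.79, 5.23, 4.18 and 8.36, with the last 2 regions 0.717 kb apart. A BAT-specific region lay 69.4 kb from this cluster.

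Chromosome 2 carried a pair of clusters of 4. In the first (chr2:117591611-117612005, 20.4 kb) the scores were 2.44, 4.53, 7.32 and 4.53. In the second (chr2:169767704-169774187, 6.48 kb) they were 3.48, 2.09, 5.23 and 2.79. The nearest BAT-specific regions were 602.3 and 1874 kb away. The second cluster was the second shortest of the 12.

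The remaining 6 clusters held only weak regions, with no score above 4.18. The third cluster on chromosome 4 (chr4:107663484-107671172) had scores of 2.79, 4.18, 2.44 and 2.44. A cluster on chromosome 19 (chr19:9041750-9060605) had 2.09, 2.09, 3.83 and 3.14, and one on chromosome 5 (chr5:44183703-44196929) had 2.09, 3.48, 3.83 and 2.09. On chromosome 6 the cluster chr6:91431431-91443975 had 2.79, 1.74, 3.83 and 3.14 and lay in a window with 8 BAT-specific regions, 108.3 kb from the nearest.

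The other cluster on chromosome 6 (chr6:122628112-122652769) was the widest, at 24.7 kb, and had scores of 2.79, 2.09, 2.09 and 3.48. The shortest, 5.01 kb, lay on chromosome 7 (chr7:147949513-147954524) with 2.44, 3.48, 2.09 and 3.14. In both the highest score was 10 score steps, and the lowest 6, so the regions within them do not differ beyond counting error.

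**Figure D4:**
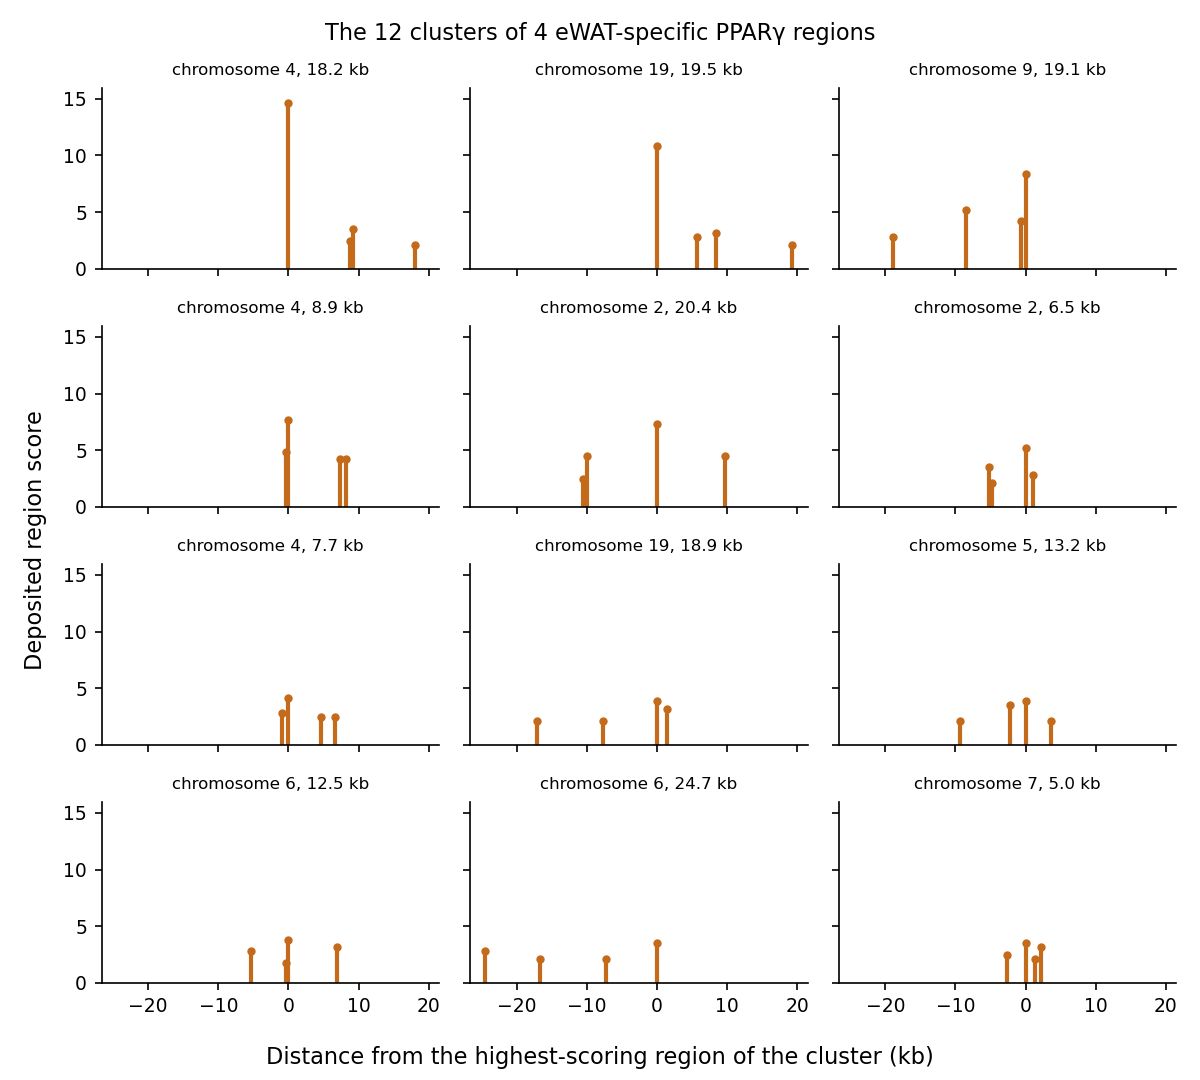
The 12 clusters of 4 eWAT-specific PPARγ regions, each panel showing the score of its regions (vertical axis) against the distance in kb from its highest-scoring region. The panels run from the cluster with the highest score (14.63, chromosome 4) to clusters whose scores all lie between 2.09 and 3.48.

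At a larger scale members were counted in 1 Mb windows counted from the start of each chromosome. Of 1902 windows with a region of either list, 1620 held a member, 535 of them a single one. Members and BAT-specific regions shared 1027 windows, and 593 windows held members alone. Windows with 9 or more members numbered 41 and held 405 members (8.64% of the members). Windows with as many BAT-specific regions numbered 31 (1.63% of the 1902), which is a share of windows and not of regions. Members outnumber BAT-specific regions by 1.32 to 1, so the 2 counts of windows do not show more crowding in either list. The limit of 9 was set after the counts were seen. Of these 41 windows, 15 (36.6%) held no BAT-specific region, the same share as the 593 of 1620 windows with any member (36.6%). Of the 31 windows chosen the same way for BAT-specific regions, 3 held no member. For background, 1027 of all 1309 windows with a BAT-specific region also held a member. The member list is longer, so these counts cannot be set against those for members.

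**Figure D5:**
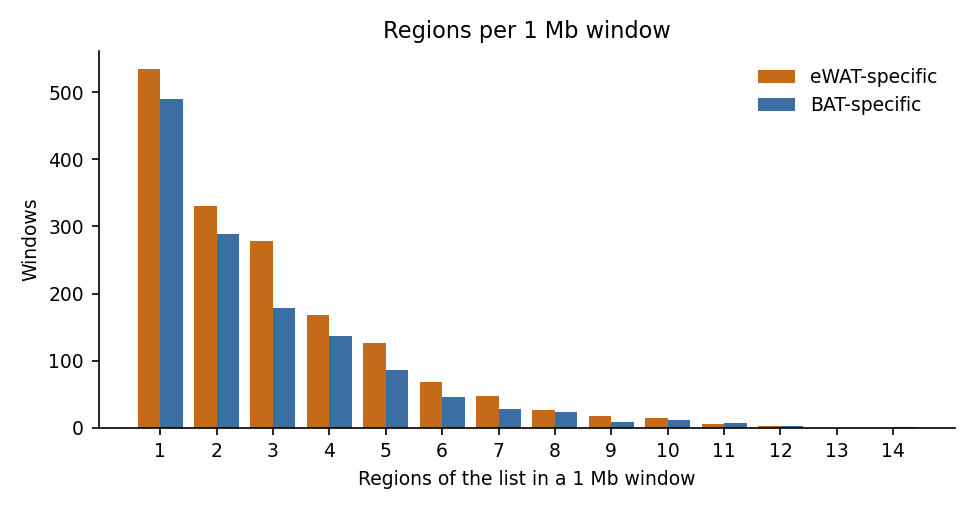
Number of 1 Mb windows (vertical axis) that hold a given number of regions of a list (horizontal axis), for eWAT-specific members and BAT-specific regions. Single regions are commonest (535 and 490 windows), and 3 windows hold 12 members.

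The most members in a window was 12, reached at 3 places. On chromosome 11 (chr11:35010160-35596794) 12 members with scores of 2.44 to 6.27 lay within 586.6 kb, with no BAT-specific region in the window. On chromosome 6 (chr6:135111432-135764376) 12 members with scores of 1.74 to 6.62 lay within 652.9 kb, 8 of them with a close neighbour, again without a BAT-specific region. The third, on chromosome 12 (chr12:105133840-105902181, scores 1.74 to 6.27), held 2 BAT-specific regions.

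None of these 12-member windows held a strong member, and their median scores were 2.96, 2.96 and 3.13, close to that of the whole list. Strong members are only 0.896% of the list, so their absence from these windows carries little weight. Other windows with 9 or more members did hold one. Examples are the windows on chromosome 4 with a highest score of 14.63 and on chromosome 17 with 11.5. Members in windows with 9 or more had a median score of 3.14 (interval 2.79 to 3.14), and those alone in their window 2.44 (interval 2.44 to 2.79). Another window on chromosome 11 (chr11:31262798-31707679) held 11 members within 444.9 kb, with scores up to 9.06 and 7 members with a close neighbour. The tightest of the crowded windows was on chromosome 13 (chr13:60696979-60978730), where 9 members with scores of 2.09 to 6.97 lay within 281.8 kb and all 9 had a close neighbour, with 1 BAT-specific region in the window.

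Not every crowded window belonged to white fat alone. On chromosome 14 (chr14:79635801-79983609) 10 members shared their window with 9 BAT-specific regions. On chromosome 8 (chr8:127075159-127953152) 9 members shared it with 7, and on chromosome 10 (chr10:127037491-127967061) 10 shared it with 6. None of the 9 members in the chromosome 8 window had a close neighbour.

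Read along the chromosome, members came in runs not interrupted by a BAT-specific region. There were 1525 such runs with a mean of 3.07 members, 558 of them single members (11.9% of the list). Runs of 10 or more numbered 61 and held 792 members (16.9%). BAT-specific regions formed 25 such runs with 8.35% of that list. That list is shorter, and shares for lists of equal length were not computed, so the 2 shares cannot be set against each other. The longest run of members was 27, on chromosome 12 (chr12:105528134-110103491), over 4.58 Mb and with scores of 1.74 to 8.36. It takes in part of the 12-member window named above.

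The next runs were 21 members on chromosome 5 (chr5:93709674-102422150), which includes the strong member at 12.19, and 20 on chromosome 13 (chr13:60696979-64135968). Another 20 lay on chromosome 12 (chr12:5261232-11156634). A run of 19 on chromosome 2 (chr2:167955612-170144955) was the most compact of the 10 longest, at 2.19 Mb, and contains a cluster of 4. A run of 18 on chromosome 19 (chr19:40867967-44081186) contains the uneven cluster with the score of 10.8, and 9 of its members had a close neighbour. In contrast, none of the 18 members of a run on chromosome 15 (chr15:50625421-54808125) had one, although their scores reached 6.62.

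Members were also absent from long stretches. The longest stretch between 2 members was 13.5 Mb on chromosome X (chrX:102197988-115713081), which held 1 BAT-specific region. A stretch of 12.0 Mb on chromosome 14 (chr14:106411488-118438406) held 8 BAT-specific regions and one of 9.83 Mb on the same chromosome (chr14:79983610-89812183) held 6. That second stretch begins right after the last member of the window with 10 members and 9 BAT-specific regions. On chromosome X a stretch of 10.2 Mb (chrX:23143000-33392044) held no region of either list. Chromosome 14 thus had both the highest share of members with a close neighbour and some of the longest stretches without a member. As background, BAT-specific regions averaged 1.41 per Mb on that chromosome. Distances between successive BAT-specific regions reached 22391.5 kb, so long stretches without a region were not particular to the members.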

How the data were processed

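PPARγ ChIP-seq of 2 mouse fat depots was analysed, with 1 library per depot, grouped by the labelled tissue. For each depot the authors deposited a list of 200 bp regions, without a header, and a score per region whose unit is not stated. Per the submitters' processing notes, Bowtie and HOMER were used and builds mm8 and mm9 are named. How specificity was called, how input DNA was used and the library totals are not stated, so depth is unknown.

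Members, lists and limits were chosen with earlier results of these data known. The score step was the value that left the smallest squared remainder; 99.8% of eWAT scores were whole multiples within 0.005. Distances are between midpoints. Intervals are exact binomial (Clopper-Pearson), exact Poisson on score steps or counts, or order statistics for medians, each at 95%, and cover counting error only. Intervals on counts or shares of regions treat regions as independent, although regions in a cluster are not. Python 3.11.15, pandas 2.3.3, numpy 2.4.6 and scipy 1.17.1 were used, and the functions were tested on simulated data with placed clusters. Regions were named if they were among the 10 highest scores (ties kept) or in clusters of 4 or more. Other named regions (such as the top member of a chromosome), pairs, windows, runs and stretches were chosen after their values were seen. Positions relative to genes, gene lists, marker lists and motifs were planned but not computed, since the gene positions used here are of build GRCm38; parts of the naming rule that need genes were dropped.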

Additional observations from a re-analysis of the deposited data

How the results depend on the processing

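The number of members (4688), their median score (2.79), the median score of members with a close neighbour (3.14) and the share on chromosome 11 (7.34%) kept their values within 1.5 times or within their interval in all alternatives run. Those were no score limit, the pile-ups kept, a floor at the lowest BAT score, all rows of the eWAT list, neighbour distances of 5 and 50 kb, or the 2697 members at or above the median score, as each applied. The share with a close neighbour (19.6%) was 10.2% at 5 kb, 42.4% at 50 kb, 15.9% among members at or above the median score and 16.9% with members within 1 kb merged. Clusters of 4 or more (12) numbered 3 at 5 kb, 86 at 50 kb, 2 at or above the median score and 4 after merging. Windows with 9 or more members (41) numbered 6 at 0.5 Mb, 135 at 2 Mb and 4 at or above the median score. Runs of 10 or more members (61) numbered 40 with each list held to its own median score. These alternatives use fewer regions or another distance by construction. Alternatives for windows, runs, chromosome 11, all rows of the eWAT list and the floor for spacing were chosen after seeing the data. With 1 library per depot none could be left out. No paired analysis was possible because each depot has 1 library. Alternatives for gene positions, gene lists and motifs were not run. If a score step is 1 tag, the 63.4% of members with 9 steps or fewer rest on few tags, which limits the precision of their order.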
